A study of Mus musculus with 4 samples.

Results

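The transcripts described here encode 9 parts or partners of the smooth muscle contractile apparatus, Acta2, Tagln, Myl9, Tpm2, Cnn1, Cnn2, Myh11, Lmod1 and Smtn. They were chosen by symbol for that role and make up 9 of the 21885 genes counted. Transcript molecules (UMIs, unique molecular identifiers) were counted with Visium arrays, whose spots each capture RNA from a small region holding several cells, on 1 transverse section from each of 4 mouse hearts. All mice carried the Collagen1a1-GFP+ genotype, a GFP reporter driven by the collagen type I alpha 1 promoter, and were 8 to 12 weeks old. The groups were 1 uninjured control labelled female, 1 heart labelled female at 3 days post-infarction (dpi), and 2 hearts at 5 dpi, replicate 1 labelled female and replicate 2 labelled male. The infarct model was permanent ligation of the left anterior descending artery, and no sham-operated heart was among the samples. With 1 heart at the control and at 3 dpi, and 1 section per heart, those groups have no replicate spread of their own.

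Smooth muscle cells shorten when myosin, built from heavy and regulatory light chains, pulls on filaments of alpha smooth muscle actin that tropomyosin, calponin and transgelin line or stabilise. In the uninjured heart these proteins are known mainly from the walls of arteries. After infarction, fibroblasts that become myofibroblasts take up part of the same set, classically alpha smooth muscle actin and transgelin, while the smooth muscle myosin heavy chain Myh11 is widely used as a marker that separates mural smooth muscle from myofibroblasts.

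Of the 9 genes, 7 had a promoter in the RefSeq table used (GRCm38.p6), and the 250 bases before the transcription start were searched for the CArG box, the motif bound by serum response factor, a regulator of smooth muscle genes. The search covered both strands, on which the motif reads alike, and took a strict form with only A and T in the core and a relaxed form with 1 G or C there. Strict boxes stood in 1.47% and relaxed boxes in 7.24% of the 32851 promoters in that table, over the same window. Acta2 held 2 relaxed boxes, Myl9 held 1 strict and 1 relaxed box, Cnn2 held 1 strict box, and neither form was found in these windows of Tpm2, Cnn1, Lmod1 or Smtn. The 3 promoters with a box are printed 5′ to 3′, with each box in capitals, because they belong to genes that were higher in the infarct. A match is a description of letters and not evidence of binding.
Acta2, chr19:34255374-34255623, minus strand: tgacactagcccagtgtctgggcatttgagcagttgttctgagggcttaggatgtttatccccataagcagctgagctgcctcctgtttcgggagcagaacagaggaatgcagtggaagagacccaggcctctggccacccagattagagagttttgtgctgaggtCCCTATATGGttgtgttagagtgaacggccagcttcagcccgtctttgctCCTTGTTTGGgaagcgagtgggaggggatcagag
Myl9, chr2:156775214-156775463, plus strand: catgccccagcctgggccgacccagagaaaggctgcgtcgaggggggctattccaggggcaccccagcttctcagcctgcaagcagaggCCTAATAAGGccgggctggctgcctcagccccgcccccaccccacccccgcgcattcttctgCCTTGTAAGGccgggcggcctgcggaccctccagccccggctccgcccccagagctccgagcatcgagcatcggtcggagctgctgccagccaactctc
Cnn2, chr10:79988350-79988599, plus strand: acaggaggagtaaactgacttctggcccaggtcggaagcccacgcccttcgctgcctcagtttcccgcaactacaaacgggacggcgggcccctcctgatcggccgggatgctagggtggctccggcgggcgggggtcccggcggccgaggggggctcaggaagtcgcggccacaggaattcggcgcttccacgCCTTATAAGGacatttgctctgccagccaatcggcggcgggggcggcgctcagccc

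The sections held 1146 to 1741 kept spots and 3742105 to 9540940 UMIs outside mitochondrially encoded genes, the lowest in the control. Levels are given as CPM, a gene's UMIs scaled to the same total of those UMIs in every place, with exact 95% Poisson intervals that cover counting error only, and are compared for 1 gene across places, never between genes. The tissue label was borne out by 12 cardiomyocyte genes, which summed to 101295 CPM in the control. The 4 Y-linked genes examined had 0 UMIs in the control and 0 at 3 dpi, both labelled female, but 704 UMIs in 5 dpi replicate 1, labelled female, and 1 UMI in replicate 2, labelled male. The sex labels of the 5 dpi sections were therefore not borne out. The tests within infarcted hearts, apart from the one over time, and the ratios to Myh11 are also given without each section. The other results are not. Spots of the infarcted hearts were sorted by their share of the 12 cardiomyocyte genes, none of which is among the 9, into the infarct zone (IZ, patches under 0.5 times the 90th percentile of the section), the border zones BZ2 (up to 2 spots away from it) and BZ1 (3 to 4 spots away), and the remote zone (RZ). The IZ held 882, 1061 and 684 spots and the RZ held 380, 200 and 533 in the 3 dpi section and the 5 dpi replicates 1 and 2. This order of sections is kept for every set of 3 values.

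Over whole sections, Cnn1, Tpm2, Tagln and Cnn2 were at least 2-fold above the control in every infarcted section. Tpm2, which encodes beta-tropomyosin, was at 33.9 CPM in the control and at 223, 425 and 269 CPM after infarction. Tagln, which encodes the actin-binding protein transgelin (SM22), was at 11.2 CPM against 64.2, 162 and 97.5 CPM. All the infarcted sections lay above the control for both genes.

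Cnn1, the calponin of differentiated smooth muscle, had 13 UMIs or 3.47 CPM in the control (interval 1.85 to 5.94) and was at 26.2, 84.0 and 50.4 CPM after infarction. Cnn2, a calponin made in many cell types, was at 60.4 CPM against 182, 319 and 209.9 CPM. For these 4 genes the infarcted section nearest to the control was 6.57-fold (Tpm2), 5.72-fold (Tagln), 7.53-fold (Cnn1) and 3.02-fold (Cnn2) higher. The same limit of 2-fold in the nearest section was passed upward by 26.0% and downward by 8.63% of the 3524 genes that reached 50 CPM anywhere.

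Acta2 (alpha smooth muscle actin) and Myl9 (a regulatory light chain of myosin) were also above the control in every infarcted section but stayed under that limit at 3 dpi. Acta2 was at 316 CPM in the control and at 555, 1389 and 932 CPM after infarction, with the nearest section 1.76-fold higher. Myl9 was at 92.7 CPM against 174, 531 and 447 CPM, with the nearest section 1.87-fold higher. Both 5 dpi sections exceeded the 3 dpi section, and Myl9 was the 1 member at least 2-fold apart there (2.57-fold in the nearer section), a limit that 1.62% of 3271 genes passed upward and 0.214% downward.

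The remaining 3 genes had their control level within or near the range of the infarcted sections, or few UMIs. Myh11, the smooth muscle myosin heavy chain, was at 17.4 CPM in the control (interval 13.4 to 22.1) and at 15.8, 29.3 and 21.2 CPM, so the control lay inside the range of the infarcted sections. Lmod1, a leiomodin that starts actin filaments in smooth muscle, had 8, 21, 71 and 36 UMIs in the control and the infarcted sections, or 2.14, 2.51, 7.44 and 4.33 CPM. The infarcted sections were 1.17-, 3.48- and 2.03-fold above the control, and the interval at 5 dpi replicate 1 (5.81 to 9.39) was clear of that of the control (0.923 to 4.21). Smtn, which encodes the actin-associated protein smoothelin, was at 139 CPM in the control and at 122, 110.2 and 115 CPM, with the nearest section 1.14-fold lower. The folds over the control for all 9 genes used no TMM scaling, an adjustment of the UMI totals. Its factors were 0.803 in the control and 1.09, 1.12 and 1.02 in the infarcted sections. With TMM every infarcted section would stand lower relative to the control. No test against the 1 control section was made, and fewer cells of a type and less RNA per cell cannot be told apart in spots.

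Within the infarcted hearts Acta2, Myl9, Tpm2, Tagln, Cnn1 and Cnn2 were higher in the IZ than in the RZ, and Myh11 was not called. Smtn was called lower by the fit, although its CPM was lower in the IZ in 1 of 3 sections. The edgeR quasi-likelihood test on zone sums, with the section as a block and Benjamini-Hochberg adjustment, called 6 of the 8 members tested higher and 1 lower, where 54.0% of all 9811 genes tested were called, 28.2% higher and 25.9% lower. The median log2 fold change was 1.41 over the 8 members and 0.08 over all genes. Lmod1 was left out by the filter on low counts, and without that filter its log2 fold change was 0.34 (adjusted p = 0.655, edgeR).

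Among the filament proteins, Acta2 reached 709, 1651 and 1352 CPM in the IZ and 272, 425 and 342 CPM in the RZ. The lowest IZ value was above the highest RZ value, and the IZ was 2.61-, 3.88- and 3.96-fold higher within sections. The RZ values lay to both sides of the control level of 316 CPM. In the edgeR quasi-likelihood test the log2 fold change was 1.42 (SE 0.17, adjusted p = 5.51e-07).

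Spot by spot, the median IZ spot held 3, 9 and 8 Acta2 UMIs and the median RZ spot 1 in each section, with single spots reaching 94 UMIs in the IZ and 24 in the RZ of 5 dpi replicate 1. After thinning every spot to 1534 UMIs, Acta2 was found in 62.8%, 83.9% and 78.4% of IZ spots and in 33.9%, 43.3% and 37.2% of RZ spots. Acta2 shares long stretches of coding sequence with the cardiac actin Actc1, and how the authors' counting divided such reads was not tested.

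Myl9 was at 208, 614 and 665 CPM in the IZ and at 108, 180.3 and 119.7 CPM in the RZ. All IZ values were above the RZ values, by the least at 3 dpi. Its log2 fold change was 1.40 (SE 0.20, adjusted p = 4.09e-06, edgeR).

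Tpm2 was at 291, 506 and 400.3 CPM in the IZ and at 68.5, 84.8 and 76.5 CPM in the RZ, which differed little between hearts. Its log2 fold change was 1.97 (SE 0.18, adjusted p = 8.35e-09, edgeR). The RZ itself was 2.02-, 2.50- and 2.26-fold above the control section, a difference with no test.

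Tagln was at 86.8, 188 and 144 CPM in the IZ and at 19.6, 54.9 and 22.2 CPM in the RZ. The RZ of 5 dpi replicate 1 stood above the other RZ values, and every IZ value was higher still. The log2 fold change was 1.84 (SE 0.17, adjusted p = 8.40e-09, edgeR). After the same thinning, 12.7%, 25.2% and 19.4% of IZ spots held a Tagln UMI, against 2.39%, 7.25% and 3.21% of RZ spots and 1.69% of control spots.

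The calponins moved the same way. Cnn1 was at 34.1, 96.7 and 76.9 CPM in the IZ and at 9.03, 25.1 and 8.46 CPM in the RZ, with 12, 21 and 21 UMIs behind the RZ values. Cnn2 was at 226, 358 and 288 CPM in the IZ and at 88.8, 139 and 88.2 CPM in the RZ. The log2 fold changes were 2.05 (SE 0.23, adjusted p = 1.70e-07) for Cnn1 and 1.10 (SE 0.14, adjusted p = 8.20e-07) for Cnn2 in the edgeR test. For Cnn1 it was 1.55 with the zone limit at 0.3 and 3.15 at 0.7 in place of 0.5, with Cnn1 called in both.

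Myh11 was at 17.6, 31.4 and 25.0 CPM in the IZ and at 15.8, 37.0 and 12.9 CPM in the RZ, so the zones overlapped and the order turned in 5 dpi replicate 1. The log2 fold change was -0.07 (SE 0.24, adjusted p = 0.826, edgeR) and turned to 0.31 (adjusted p = 0.274) with total UMIs in place of TMM scaling. That change of scaling moved the median of all genes from 0.08 to 0.47 and the calls from 2762 higher of 5299 to 4731 higher of 6409, while the 6 members called higher were the same.

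Smtn was at 117, 109 and 117 CPM in the IZ and at 146, 101 and 112 CPM in the RZ, with the zones overlapping, or 0.801-, 1.08- and 1.04-fold in IZ over RZ. Its log2 fold change was -0.45 (SE 0.14, adjusted p = 0.00930, edgeR), and the call was lost without the 3 dpi section (-0.31, adjusted p = 0.0999) and with total UMIs in place of TMM scaling (-0.06, adjusted p = 0.70). Lmod1 had 12, 64 and 28 UMIs in the IZ and 6, 3 and 5 in the RZ, or 2.40, 8.50 and 5.79 CPM against 4.52, 3.58 and 2.01 CPM, and the intervals of the zones overlapped in all 3 sections.

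**Figure D1:**
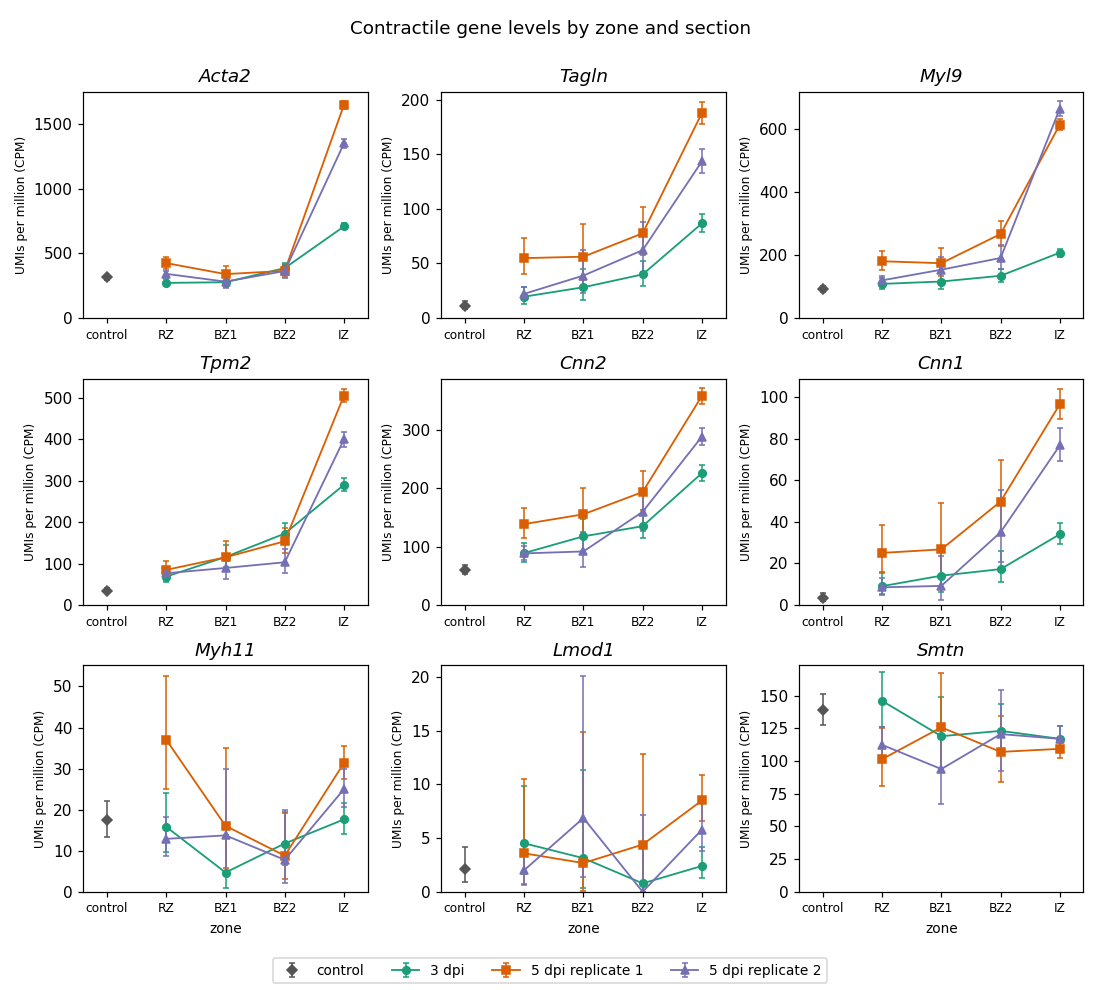
Level of each contractile gene in CPM (vertical axes start at 0) in the whole control section and in the remote zone (RZ), border zones (BZ1, BZ2) and infarct zone (IZ) of the 3 infarcted sections, with exact 95% Poisson intervals for counting error. Acta2 lies at 272 to 425 CPM in the RZ, at 364 to 387 CPM in BZ2 and at 709 to 1651 CPM in the IZ, while Tagln, Tpm2, Cnn1 and Cnn2 are already higher in BZ2 than in the RZ and the zones of Myh11 and Smtn overlap.

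Markers of other cell types differed between the same zones. The 12 cardiomyocyte genes, which define the zones, were all called lower in the IZ. All 8 activated fibroblast markers tested were called higher in the IZ, with a summed level of 12258 to 22635 CPM against 2401 to 3485 CPM in the RZ, and so were 6 of 6 macrophage markers (7673 to 10465 against 886 to 1181 CPM). In the control section the activated fibroblast markers summed to 436 CPM and the macrophage markers to 565 CPM. Of 3 tested smooth muscle markers outside the 9 genes, 1 was called higher (Mylk) and 2 lower (Synpo2 and Myocd). Mylk was at 33.7, 48.9 and 42.4 CPM in the IZ and at 16.6, 37.0 and 16.9 CPM in the RZ. Synpo2 was at 22.4, 21.0 and 23.6 CPM against 58.7, 71.6 and 31.8 CPM. Kcnmb1, left out by the filter on low counts, was at 6.61, 6.11 and 5.99 CPM against 1.51, 3.58 and 1.21 CPM. The 4 listed summed to 66.5 to 77.1 CPM in the IZ and 60.0 to 123 CPM in the RZ, none at 0. That sum joins genes of opposite direction. Of 8 pericyte markers 1 was called higher and 5 lower, at 418 to 574 CPM in the IZ and 498 to 681 CPM in the RZ. Of 6 endothelial markers 4 were called lower and 0 higher, and of 6 resting fibroblast markers 3 lower and 1 higher. The part of these cells in the contractile gene differences was not tested.

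Set against Myh11 in the same spots, Acta2 gave 4022, 5265 and 5406 UMIs per 100 Myh11 UMIs in the IZ and 1719, 1148 and 2650 in the RZ, with 1817 in the control. Tagln gave 492, 600 and 574 UMIs per 100 Myh11 UMIs in the IZ and 124, 148 and 172 in the RZ, with 64.6 in the control. Both ratios were higher in the IZ in 3 of 3 sections. The RZ ratios rest on only 21, 31 and 32 Myh11 UMIs, and the IZ ratios on 88, 236 and 121. The mean log2 ratio of ratios was 1.48 (SD 0.63, n = 3) for Acta2 and 1.92 (SD 0.15, n = 3) for Tagln, each with p = 0.25 in a two-sided exact sign-flip permutation test, the smallest that 3 sections allow. At a zone limit of 0.7 the Acta2 mean was 0.84. With Myh11, Cnn1 and Lmod1 summed as the denominator the means were 0.39 and 0.83, the Acta2 ratio was lower in the IZ than in the RZ of 5 dpi replicate 2, and Cnn1, which supplied most of the added UMIs in the IZ, was itself called higher there.

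Spots with at least 2 Myh11 UMIs were few, 8 in the control and 20, 40 and 30 in the infarcted sections. Outside the infarct, Myl9, Tagln, Tpm2 and Acta2 had higher levels in these spots than in the others. In the RZ, Myl9 was at 1559, 1461 and 1653 CPM in these spots and at 87.1, 141 and 107 CPM in the rest, 17.9-, 10.3- and 15.5-fold apart. In the control, 17.9-fold separated them.

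Tagln in the RZ was 16.2-, 13.0- and 12.0-fold higher in Myh11 spots, Tpm2 15.6-, 9.60- and 5.95-fold, and Acta2 6.62-, 3.60- and 5.00-fold. In the IZ, the same contrast was 1.37-, 1.78- and 1.2-fold for Tagln, 1.79-, 1.56- and 1.14-fold for Tpm2, 1.98-, 1.88- and 1.34-fold for Myl9, and 1.75-, 2.01- and 1.36-fold for Acta2. For each of these 4 genes the RZ folds and the IZ folds did not overlap. They rest on 4, 5 and 4 RZ spots and 13, 35 and 24 IZ spots, IZ spots reach 2 UMIs more easily where they hold more RNA, and no test was made.

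Cnn2 and Smtn were not concentrated in this way. Cnn2 was 1.17-, 2.12- and 1.10-fold higher in the Myh11 spots of the RZ, with 0 of its 226 control UMIs there, and Smtn was at 0.352, 0.393 and 0.864 of the level in the other RZ spots, with 1, 1 and 2 UMIs. Cnn1, with 1, 1 and 0 UMIs in the Myh11 spots of the RZ, and Lmod1, with 0, 2 and 0, were too sparse there to compare. Leaving all Myh11 spots out of the zone test kept the same 7 members called in IZ against RZ, and so did leaving out their direct neighbours too.

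**Figure D2:**
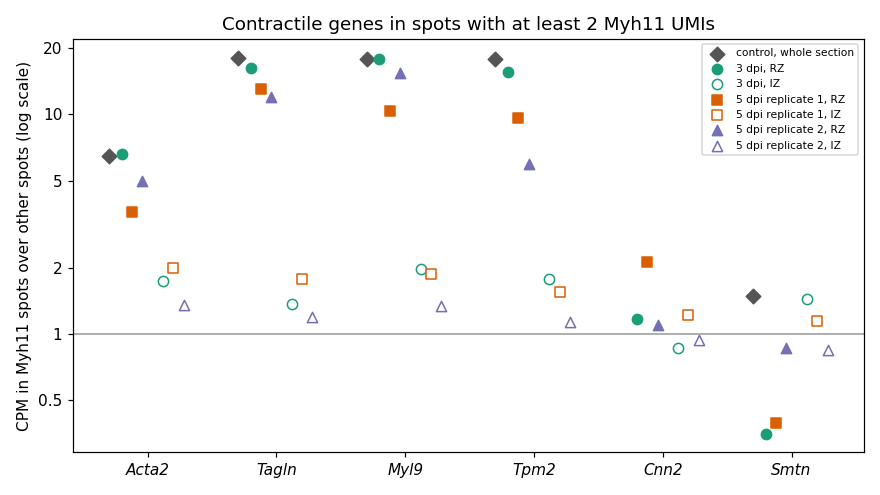
Ratio of the level in spots with at least 2 Myh11 UMIs to that in other spots (log axis, line at 1) for 6 contractile genes, in the whole control section, the RZ (filled) and the IZ (open) of each infarcted section; Cnn2 in the control, with 0 UMIs in those spots, is not drawn. Acta2, Tagln, Myl9 and Tpm2 lie at 3.60 to 17.9 in the RZ and at 1.14 to 2.01 in the IZ.

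In the zone next to the infarct, Tagln, Tpm2, Cnn1 and Cnn2 were higher than in the remote zone, and Acta2 was not called. In BZ2 against RZ, 4 of 8 members tested were called higher and 0 lower, where 8.64% of 9811 genes were called, 3.91% higher and 4.73% lower (384 higher of 848 calls, or 738 of 1028 with total UMIs in place of TMM scaling, which called the same 4 members). Cnn1 was at 17.2, 49.8 and 35.0 CPM in BZ2 (22, 34 and 18 UMIs), with a log2 fold change over RZ of 1.23 (SE 0.30, adjusted p = 0.0106, edgeR). Tagln was at 40.0, 77.7 and 62.3 CPM, a log2 fold change of 0.85 (SE 0.20, adjusted p = 0.00970, edgeR).

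Tpm2, at 172, 154 and 103 CPM, gave 0.76 (SE 0.19, adjusted p = 0.0165), and Cnn2, at 135, 193 and 159.5 CPM, gave 0.48 (SE 0.15, adjusted p = 0.0475) in the edgeR test. All 4 were higher in BZ2 than in the RZ of the same section in 3 of 3 sections.

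Acta2 in BZ2 was at 387, 365 and 364 CPM, above the RZ of its section at 3 dpi and in 5 dpi replicate 2 and below it in 5 dpi replicate 1. Its log2 fold change was -0.0050 (SE 0.18, adjusted p = 0.998, edgeR), and it turned to 0.16 with total UMIs in place of TMM scaling. Myl9, higher in BZ2 in 3 of 3 sections, gave 0.37 (SE 0.21, adjusted p = 0.337, edgeR), and it was called at 0.80 (adjusted p = 0.00731) with the zone limit at 0.3 and at 0.78 (adjusted p = 0.0162) without Myh11 spots and their neighbours. Smtn gave -0.21 (SE 0.15, adjusted p = 0.497, edgeR).

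Myh11 had 15, 6 and 4 UMIs in BZ2, or 11.8, 8.80 and 7.78 CPM, below the RZ of the same section in every section. Its log2 fold change was -1.07 (SE 0.37, adjusted p = 0.0778, edgeR), and it ranged from -0.52 without 5 dpi replicate 1 (adjusted p = 0.654) to -1.56 without the 3 dpi section (adjusted p = 0.0308), with -0.22 at a zone limit of 0.7 (adjusted p = 0.874). The BZ2 calls rest on few sections and on the zone limit. At a limit of 0.7 Tpm2 alone was called (adjusted p = 0.283 for Tagln, 0.136 for Cnn1 and 0.132 for Cnn2), without the section block 0 were called by edgeR with 4 at an unadjusted p under 0.05, and DESeq2 dropped Cnn2. With 1 section left out, the calls were Tagln, Cnn1 and a lower Myh11 without the 3 dpi section, Tagln without 5 dpi replicate 1, and Tpm2 without 5 dpi replicate 2. All 8 activated fibroblast markers (6496 to 10093 CPM summed) and 3 of 6 macrophage markers were called higher in BZ2. Called lower were 8 of 12 cardiomyocyte genes, 1 of 6 resting fibroblast markers and 1 of 3 tested smooth muscle markers outside the 9 genes, with 0 higher. The part of these cells in the BZ2 differences was not tested.

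**Figure D3:**
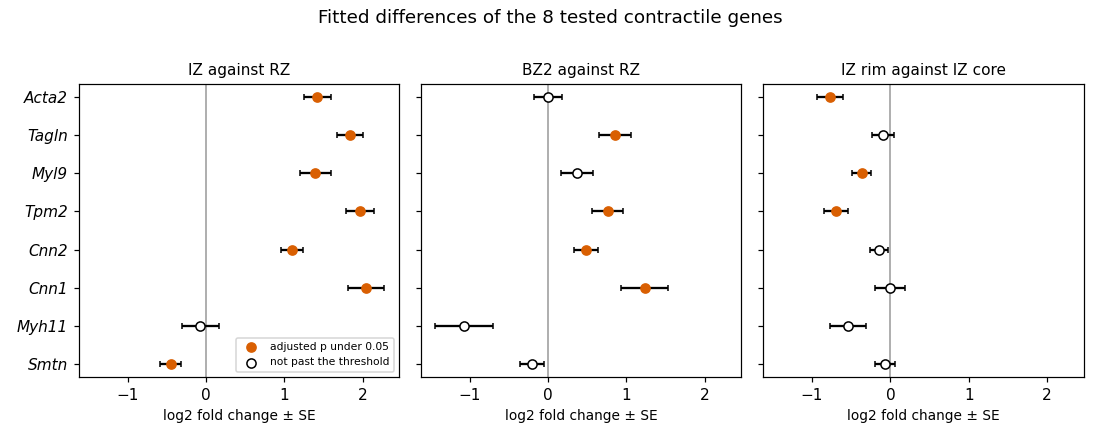
Fitted log2 fold changes with standard errors for the 8 contractile genes tested, for the infarct against the remote zone (IZ, RZ), border zone 2 against the remote zone (BZ2, RZ) and the rim against the core of the infarct, from the edgeR quasi-likelihood test over 3 infarcted sections, with filled points for adjusted p under 0.05. Acta2 stands at 1.42 in IZ against RZ and at -0.0050 in BZ2 against RZ, while Tagln, Tpm2, Cnn1 and Cnn2 are called in both.

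Inside the infarct, IZ spots were divided into rim, middle and core by their distance from the nearest kept spot of another zone. The rim lay 1 to 2 steps away, the middle 3 to 4 steps and the core farther. Outer and cavity surfaces of the tissue did not count as an edge. Core thus means far from the border zone and can include spots at such a surface. In the edgeR test of rim against core, 3 of 8 members were called lower and 0 higher, where 23.2% of 10028 genes were called, 14.0% higher and 9.27% lower (1399 higher of 2329 calls, or 1056 of 2717 with total UMIs in place of TMM scaling, which added Myh11 to the members called). Acta2 was at 632, 706 and 671 CPM in the rim and at 717, 1882 and 1478 CPM in the core. The rim values of the hearts lay close together and the core values did not.

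The log2 fold change of rim over core was -0.77 for Acta2 (SE 0.16, adjusted p = 0.000992), -0.70 for Tpm2 (SE 0.15, adjusted p = 0.00167) and -0.37 for Myl9 (SE 0.13, adjusted p = 0.0377) in the edgeR test. Tpm2 went from 245, 255 and 202 CPM in the rim to 296, 561 and 439 CPM in the core, and Myl9 from 187, 417 and 415 CPM to 203, 654 and 704 CPM. At 3 dpi the 183 spots of the middle held the most of all 3 (828 CPM for Acta2, 359.6 for Tpm2, 249.7 for Myl9). Without 5 dpi replicate 1 or replicate 2, 0 members were called by edgeR, with 2 and 3 at an unadjusted p under 0.05, and the values were -0.51 and -0.65 for Acta2 and -0.54 and -0.55 for Tpm2. Without the 3 dpi section Acta2 was at -1.16 and Myl9 at -0.59, both called. With the zone limit at 0.3, Acta2 was at -0.38 (adjusted p = 0.0496), Tpm2 lost its call (-0.36, adjusted p = 0.0905) and Myl9 turned to 0.0894 (adjusted p = 0.683), and Myl9 also lost its call with DESeq2 (adjusted p = 0.0930) and without Myh11 spots and their neighbours (adjusted p = 0.0522).

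The other members were not called here, but with the zone limit at 0.7 the edgeR test called Tagln (-0.81, adjusted p = 0.000422), Cnn2 (-0.55, adjusted p = 0.00777), Myh11 (-0.78, adjusted p = 0.0198) and Cnn1 (-0.55, adjusted p = 0.0263) lower in the rim too. At the limit of 0.5, Tagln was at 81.8, 154 and 127.4 CPM in the rim and at 90.005, 201 and 145 CPM in the core (log2 fold change -0.10, SE 0.14, adjusted p = 0.679, edgeR). Cnn1 was at 34.6, 72.5 and 83.7 CPM in the rim and at 31.1, 106 and 74.3 CPM in the core, with the order differing between sections (-0.0030, SE 0.19, adjusted p = 0.996, edgeR). Cnn2 gave -0.14 (SE 0.12, adjusted p = 0.426, edgeR), Smtn -0.07 (SE 0.12, adjusted p = 0.761, edgeR) and Myh11 -0.54 (SE 0.23, adjusted p = 0.0915, edgeR).

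Cardiomyocyte genes, which define the edge, were called higher in the rim for 12 of 12, and macrophage markers lower for 4 of 6. Called higher in the rim, with 0 lower, were 2 of 8 activated fibroblast, 3 of 6 resting fibroblast, 5 of 8 pericyte, 1 of 6 endothelial and 2 of 2 tested mesothelial markers, and 1 of 2 tested smooth muscle markers outside the 9 genes. Their part in the gradients of Acta2, Tpm2 and Myl9 was not tested.

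**Figure D4:**
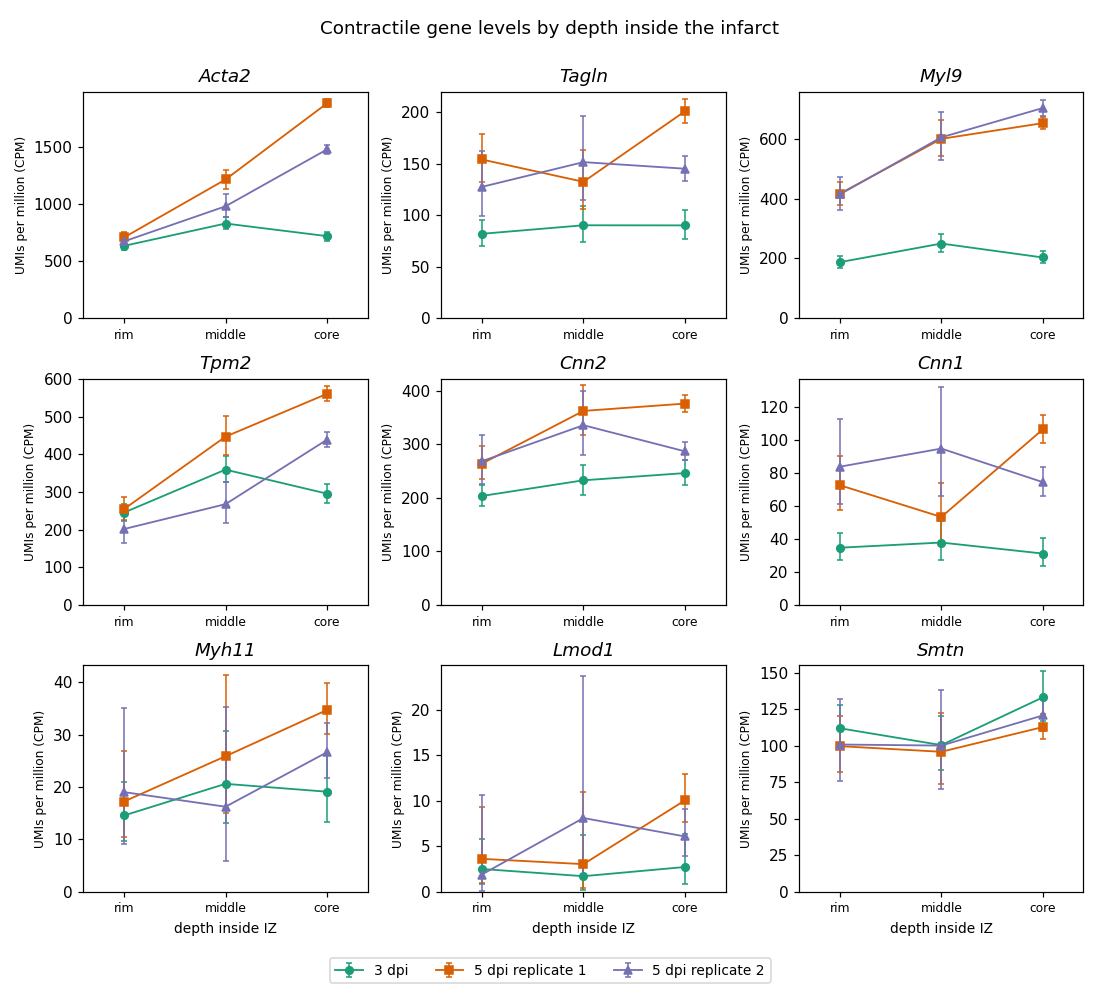
Level of each contractile gene in CPM (axes start at 0) in the rim, middle and core of the infarct zone of the 3 infarcted sections, with exact 95% Poisson intervals. Acta2 climbs from 706 to 1882 CPM and from 671 to 1478 CPM in the 5 dpi sections and peaks in the middle at 828 CPM at 3 dpi, while rim and core of Cnn1 change order between sections.

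Spots were also sorted by cardiomyocyte share alone, taken relative to the 90th percentile of their section, which is a description with no test. Acta2 in 5 dpi replicate 1 went from 367 CPM in spots at 0.75 and over through 417, 570.2 and 1281 CPM to 1890 CPM in spots under 0.1, and in replicate 2 from 321 through 371, 659 and 1304 to 1505 CPM. At 3 dpi it was highest in the class from 0.1 to 0.25 (820 CPM, interval 773 to 869) and at 741 CPM under 0.1. Tpm2 had its highest class in the same places as Acta2 in all 3 sections.

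Tagln was highest in the class from 0.1 to 0.25 in every infarcted section, at 97.8, 199 and 172 CPM, against 83.1, 195 and 141 CPM under 0.1, and the intervals of these classes overlapped in all 3 sections. Cnn1 was highest from 0.25 to 0.5 at 3 dpi (43.9 CPM), under 0.1 in 5 dpi replicate 1 (99.6 CPM) and from 0.1 to 0.25 in 5 dpi replicate 2 (119 CPM, against 64.8 CPM under 0.1). Smtn stayed between 101 and 141 CPM across all 15 classes of the infarcted sections. Myh11 ran from 7.0 to 35.3 CPM with no class highest in all sections.

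**Figure D5:**
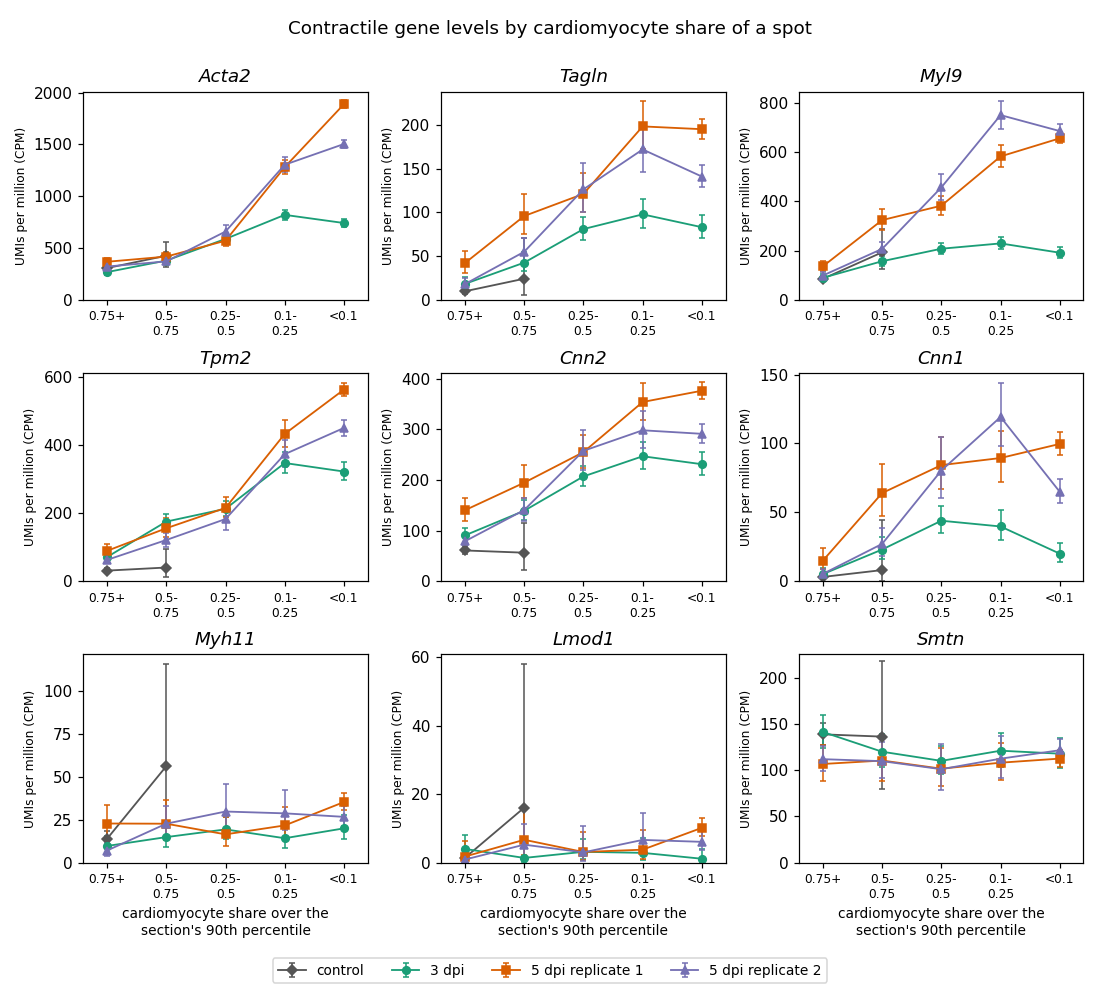
Level of each contractile gene in CPM (axes start at 0) in 5 classes of spots ordered by cardiomyocyte share relative to the section's 90th percentile, from most to least cardiomyocyte RNA, with exact 95% Poisson intervals; the control has no spots in the lowest 2 classes, and its 1 spot in the class from 0.25 to 0.5 is not drawn. Acta2 reaches 1890 and 1505 CPM in the lowest class at 5 dpi, Tagln is at 97.8 to 199 CPM in the class from 0.1 to 0.25, and Smtn stays between 101 and 141 CPM.

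In the control, a single spot fell under 0.5, and it held 23 Acta2, 16 Myl9, 10 Tpm2, 8 Myh11 and 4 Tagln UMIs and 0 Cnn2 UMIs. Across the 17 section and class values with at least 20 spots, the levels on the log2(CPM + 10) scale correlated over places most strongly for Tagln with Cnn2 (r = 0.97) and with Cnn1 (0.96), Tpm2 with Cnn2 (0.96) and Myl9 with Cnn1 (0.94). Acta2 was nearest to Myl9 and Tpm2 (0.88 each). For Myh11 the nearest member was Lmod1 (r = 0.80), followed by Myl9 (0.56), Acta2 (0.45) and Tagln (0.40). These values share sections and depth, and with the single control spot added as an 18th value the r of Tagln with Cnn2 turned to -0.07 and that of Myh11 with Lmod1 became 0.98.

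Among genes outside the 9, with a mean of at least 20 CPM over those values, the ones most like Tagln over all 18 values were Fmnl3, Cnn3, Vasn, Crip1 and Adamts10 (r = 0.97 to 0.98), which kept r of 0.94 to 0.96 over 17. Those most like Acta2 were Trim28, Cebpd, H2-Eb1, Rab8a and Nptn (0.94 to 0.95, then 0.88 to 0.90). Those most like Myh11 were Kazald1, Senp1, Ptger4, Btd and Ercc4 (0.97 to 0.98, then 0.66 to 0.81). In each case 0 of these 5 were still among the nearest 5 without the single spot, so the lists rest on it. Without that spot the nearest to Tagln were Loxl3, Olfml2b, Cyb5r3, Pea15a and Dap (r = 0.97 to 0.98). Those nearest to Acta2 were Cic, Chst12, Kif26b, Ikbip and Hp (0.93 to 0.94). For Myh11 they were Cnot8, Sppl3, Ostm1, Atrn and Sec16a (0.77 to 0.82).

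Time was compared through the difference between IZ and RZ at 5 dpi against 3 dpi, in which the 1 section at 3 dpi is assumed to vary like the others. In the edgeR test 1 of 8 members was called, Myl9, where 2.76% of 10330 genes were called, 0.736% higher and 2.02% lower. IZ over RZ for Myl9 was 1.92-fold at 3 dpi and 3.41- and 5.56-fold at 5 dpi. The interaction on the log2 scale was 1.22 (SE 0.27, adjusted p = 0.00430, edgeR), and DESeq2 gave 1.23 with adjusted p = 0.0917. Acta2 gave 0.61 (SE 0.23, adjusted p = 0.180, edgeR), and the other 6 members lay between 0.14 and 0.71 with SE of 0.27 to 0.55, which these sections could not tell from 0. The 12 cardiomyocyte genes were all called lower in the same interaction. Called higher were 2 of 8 activated fibroblast, 3 of 6 resting fibroblast and 1 of 6 macrophage markers. The part of these cells in the Myl9 value was not tested.

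Other genes of the contractile system divided in the same comparison of IZ with RZ, in lists described by counts. Over all genes tested, 28.2% were called higher and 25.9% lower. Of 11 tested smooth muscle genes outside the 9, 5 were called higher and 4 lower. Cald1 (caldesmon, an actin-binding inhibitor of contraction) had a log2 fold change of 1.32 (adjusted p = 7.49e-08), whereas Synpo2 (synaptopodin 2) had -1.57 (adjusted p = 4.01e-07) and Ppp1r12b (a myosin phosphatase subunit) -2.14 (adjusted p = 1.42e-10) in the edgeR test. Actg2, the enteric smooth muscle actin and a close relative of Acta2, was picked out after its values were seen. It was at 0.534 CPM in the control, at 8.62, 73.6 and 44.8 CPM in the IZ and at 1.51, 4.78 and 2.82 CPM in the RZ (log2 fold change 3.39, adjusted p = 6.87e-08, edgeR).

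Of 15 tested relatives of the 9 genes used outside smooth muscle, 10 were called higher and 5 lower. The 3 with the largest changes among those at 50 CPM or more, all lower, are known from striated muscle or shared with it. Tpm1 (alpha-tropomyosin) had a log2 fold change of -2.30 (adjusted p = 5.09e-11), Lmod2 -2.26 (adjusted p = 2.59e-08) and Lmod3 -3.55 (adjusted p = 1.66e-10) in the edgeR test. Tpm1 and Tpm2, the tropomyosin member, were called in opposite directions.

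Of 10 actin-binding and adhesion genes, 7 were called higher and 1 lower, among them Csrp2 (a LIM protein of smooth muscle, 1.82), Actn1 (alpha-actinin 1, 1.70) and Fhl2 (a LIM protein abundant in cardiomyocytes, -3.28). Of 15 upstream regulators and signals, 8 were called higher and 4 lower. Tgfb3 (a TGF-beta ligand), at 78.9, 198 and 196 CPM in the IZ and 21.1, 53.7 and 25.8 CPM in the RZ, had the largest change at 1.91 (adjusted p = 4.69e-08, edgeR). Its receptor gene Tgfbr1 gave 1.60 (adjusted p = 1.33e-06) and Ccn1, a matricellular target of mechanical signals, 1.27 (adjusted p = 3.87e-07). Picked out after their values were seen, Srf (serum response factor, which binds the CArG box) was at 15.8, 8.24 and 7.65 CPM in the IZ and 20.3, 11.9 and 15.7 CPM in the RZ, with a log2 fold change of -1.07 (adjusted p = 0.000758, edgeR). Of its 3 coactivator genes listed, Myocd, at 1.03 to 3.81 CPM in the IZ, gave -2.80 (adjusted p = 5.28e-06), Mrtfa 1.09 (adjusted p = 0.000638) and Mrtfb 0.25 (adjusted p = 0.323) in the same test.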

How the data were processed

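The deposited files hold raw UMI counts per gene and spot, made by the authors with Space Ranger 1.3.1 on a mouse reference extended with GFP (mm10 in the submitters' processing notes, another Ensembl-based reference in the methods; the files carry no positions), and spots under tissue were selected by hand. Spots marked under tissue were kept with at least 500 UMIs, 250 genes and at most 50% mitochondrial UMIs. Position barcodes recur between files (184 in all 4 files). Counts were summed per zone and section, without 13 mitochondrial genes, and tested with edgeR 4.0.16 (quasi-likelihood, TMM, filterByExpr) in R 4.3.3. Alternatives were DESeq2 1.42.0, other scalings, filters, zone limits of 0.3 and 0.7, Myh11 spots left out, no block, and each section left out. Scripts were tested on simulated data. The 9 genes, the lists, the zones and the tests were chosen with earlier results of these data known. Named from each list were the 3 genes with the largest change past the threshold at 50 CPM or more, and, for 3 members, the 5 most alike genes. Replicate numbers at 5 dpi follow accession order. Samples are sections of single hearts. The section block takes out level differences between hearts. The edgeR p-values with that block measure the spread left among zone or depth sums of the 3 hearts. That spread is pooled over the zones or depths, with information shared across genes.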

Additional observations from a re-analysis of the deposited data

Results flagged for a closer look

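The difference between infarct and remote zone was larger at 5 dpi than at 3 dpi for Myl9, by 1.22 on the log2 scale in the interaction test of edgeR, a difference tested with 1 section at 3 dpi (adjusted p = 0.00430). The call was lost with DESeq2 (1.23, adjusted p = 0.0917) and at a zone limit of 0.7 (1.06, adjusted p = 0.0590). In 5 dpi replicate 2, 623 spots with counts lie outside the tissue marked in the position file and entered no comparison. They held 1211 CPM of Acta2, 213 CPM of Tagln, 388 CPM of Myl9, 359.8 CPM of Tpm2, 292 CPM of Cnn2 and 75.4 CPM of Cnn1. All 6 were above the level of the control section. The infarct zone of the same section had 1352, 144, 665, 400.3, 288 and 76.9 CPM of them. Myh11 at 11.2 CPM and Smtn at 111 CPM lay below the control there (17.4 and 139 CPM). Lmod1, with 12 UMIs, was at 5.38 CPM (interval 2.78 to 9.40) against 2.14 CPM in the control (0.923 to 4.21), with overlapping intervals.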

How the results depend on the processing

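In IZ against RZ the 6 members called higher were called in every alternative, and 6 or 7 members were called in all (6 to 7 without a section). Myh11, never past the threshold there, turned to 0.31 and 0.20 without TMM, to 0.0634 and 0.34 at zone limits of 0.3 and 0.7, and ran from -0.45 to 0.16 without a section. In BZ2 against RZ the 4 calls became 1 at limit 0.7, 0 without the block (edgeR; 4 at an unadjusted p under 0.05) and 1 to 3 without a section. Cnn2 lost its call with DESeq2, and Myh11 was called lower in its place without the count filter or the spot filter. Acta2 turned to 0.16 and 0.11 without TMM, 0.38 at limit 0.3, 0.0666 and 0.12 without Myh11 spots or those and their neighbours, and -0.21 to 0.16 without a section. For rim against core the 3 calls became 1 at limit 0.3, 7 at 0.7, 0 without the block (edgeR; 3 unadjusted) and 0 to 3 without a section. Tagln ran from -0.18 to 0.0052 and Cnn1 from -0.15 to 0.33 without a section. Cnn1 was 0.0247 with DESeq2 and 0.0642 and 0.0309 without Myh11 spots or those and their neighbours, Myl9 was 0.0894 at limit 0.3, and Smtn 0.24 at 0.7. For time, 0 members were called with DESeq2 (2 unadjusted) or at limit 0.7 (2 unadjusted), where Tagln was -0.26, Cnn2 -0.0306, Myh11 -0.0792 and Cnn1 -0.20. Myh11 was -0.0678 at limit 0.3 and Tagln -0.10 without Myh11 spots and neighbours, and leaving out sections left no residual error. At least 2-fold between 5 and 3 dpi were 2 members over all UMIs and 2 with TMM. Acta2 per Myh11 was 0.84 at limit 0.7 and 0.39 over the summed genes, and 1.13 to 1.71 without a section. Tagln per Myh11 was 1.55 at limit 0.3 and 0.83 over the summed genes, and 1.87 to 2.003 without a section. Over all genes, the 848 calls of BZ2 against RZ ranged from 56 (no block) to 1728 (limit 0.3), the 2329 of rim against core from 1051 to 2982, and the 285 of time from 95 to 345. The causes were not tested.

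Replicate numbers only follow accession order and pair no hearts, whereas zones of the same heart were paired through the section block and the ratios per section. Lmod1, with 8 to 71 UMIs a section, is limited by depth.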
